A study of Mus musculus with 2 samples.

Results

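The endothelial cell genes described here are *Pecam1*, *Cdh5*, *Esam*, *Kdr*, *Flt1*, *Tek*, *Tie1*, *Eng*, *Vwf* and *Emcn*. They were taken as every probe, other than controls, that the array names for 1 of these genes, which gave 10 of the 21245 genes with a probe, on 12 probes and 22 spots. In incisor tooth germ of *Sox21* KO mice, 8 of the 10 genes had a higher normalized signal than in wild-type tooth germ and 2 had a lower one, where 52.4% of all measured genes were higher. *Tek* and *Pecam1* were 1.56-fold and 1.54-fold higher, *Eng* and *Vwf* were 1.28-fold and 1.27-fold higher, and *Emcn* was 1.22-fold lower.

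RNA of incisors from wild-type mice and from mice lacking the transcription factor Sox21 was labelled with Cy3 and hybridized to Agilent mouse arrays, with 1 array per genotype. The study's methods name C57BL/6J as the wild-type and *Sox21* knockout mice, which were fed a soft diet, as the other genotype. The study cites the same source for these mice and for a reporter line with GFP inserted at the *Sox21* locus, and shows that GFP in mice heterozygous for *Sox21*. The sample labels give postnatal day 0 and the methods day 1, and the labels speak of the incisor whereas the design text speaks of incisor ameloblasts and whole tooth germs. The number of mice behind each array is not given in the sources used here. With 1 array per genotype, no difference could be checked against replicates or tested, so the precision is limited by the number of arrays.

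Endothelial cells line the inside of every blood and lymphatic vessel. Their growth and survival depend largely on vascular endothelial growth factors (VEGF), which signal through the receptor tyrosine kinases encoded by *Kdr* and *Flt1*, and on angiopoietins, which act on the receptor encoded by *Tek* (Tie2) together with its relative Tie1. Neighbouring endothelial cells are held together by VE-cadherin, the product of *Cdh5*, and by the immunoglobulin-type adhesion molecules encoded by *Pecam1* and *Esam*. In a growing tooth, vessels supply the dental pulp and run close to the cells that lay down the enamel matrix.

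Each value is the processed signal of a spot, an intensity from which the scanner software had removed background, and each normalized signal is that intensity divided by the 75th percentile of its array, which was 268 for wild-type and 276 for *Sox21* KO. The log2 ratio is the log2 normalized signal of *Sox21* KO less that of wild-type. The scanner software marked 49.7% and 50.4% of spots as well above background, and 13805 genes had a probe that was so on both arrays. Over these 13805 genes the median log2 ratio was 0.01, and 90% of them lay between -0.47 and 0.48. The 269 probes with at least 5 spots had a median SD of 0.09 in the log2 ratio between spots of the same probe. The 2 probes of *Sox21* had log2 ratios of -1.09 and -1.51.

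The probes of *Tek*, *Tie1*, *Pecam1* and *Emcn* are shown, since *Tek* and *Pecam1* stood highest and *Emcn* lowest among the 10 genes, and since the *Tek* and *Tie1* probes read related stretches of related receptors. Each is 60 bases long and read 5′ to 3′ on the strand of its gene. Capitals in the *Tek* and *Tie1* probes mark bases that are identical when the *Tie1* probe is shifted by 3 bases. The other 2 carry no capitals.
Tek: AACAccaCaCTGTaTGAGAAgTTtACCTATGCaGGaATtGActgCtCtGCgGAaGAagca
Tie1: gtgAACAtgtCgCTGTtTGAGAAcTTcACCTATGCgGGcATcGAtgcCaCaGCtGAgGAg
Pecam1: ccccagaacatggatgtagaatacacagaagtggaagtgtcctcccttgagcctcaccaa
Emcn: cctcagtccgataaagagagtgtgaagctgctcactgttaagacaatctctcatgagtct

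In the mm9 coordinates of the files, the *Tek* probe lies on the plus strand at chr4:94540624-94540683 and the *Tie1* probe on the minus strand at chr4:118144132-118144191. The *Pecam1* probe lies at chr11:106540864-106540923 on the minus strand and the *Emcn* probe at chr3:137086389-137086448 on the plus strand. All 4 have a reading frame without a stop codon, as do most of the 12 probes, so this does not place them in coding sequence. An exon annotation of this build was not used here. Over 57 aligned bases the *Tek* and *Tie1* probes share 39, or 68.4%, and their longest run of identical bases is 8. The genes they name had different log2 ratios, as described with the receptors.

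Promoter sequences were at hand in RefSeq (GRCm38.p6) for 6 of the 10 genes, *Kdr*, *Flt1*, *Tek*, *Tie1*, *Emcn* and *Eng*. *Pecam1*, *Cdh5*, *Vwf* and *Esam* had none there. The 250 bases before the start of *Tek* and *Emcn* are shown because these genes had the highest and the lowest log2 ratio of the 6, and because Sox21 is a SOX factor. Capitals mark AGGAAG, a core of many ETS factor sites, and AACAAT, a core of many SOX factor sites, on either strand. *Tek* lies at chr4:94739039-94739288 and *Emcn* at chr3:137340828-137341077, both on the plus strand.
Tek: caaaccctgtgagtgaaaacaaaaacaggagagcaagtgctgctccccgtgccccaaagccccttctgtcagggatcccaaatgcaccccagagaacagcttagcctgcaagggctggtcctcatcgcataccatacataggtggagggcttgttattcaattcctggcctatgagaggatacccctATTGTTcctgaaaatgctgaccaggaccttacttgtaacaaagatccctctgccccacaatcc
Emcn: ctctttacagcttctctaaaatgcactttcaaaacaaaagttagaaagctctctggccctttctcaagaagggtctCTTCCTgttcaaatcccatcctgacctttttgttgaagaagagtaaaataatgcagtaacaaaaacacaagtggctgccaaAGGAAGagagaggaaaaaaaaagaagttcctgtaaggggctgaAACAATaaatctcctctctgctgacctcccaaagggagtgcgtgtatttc

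The *Tek* stretch holds AACAAT once, read on the opposite strand and beginning 63 bases before the start, and AGGAAG 0 times. The *Emcn* stretch holds AACAAT once, 50 bases before the start, and AGGAAG at 174 and 93 bases before it, the first on the opposite strand. No base belongs to both motifs. *Tek* and *Emcn* are the 2 of the 6 genes with AACAAT, which 9.42% of 32851 promoters of this length hold, and their log2 ratios had opposite signs. AGGAAG was found for 4 of the 6 (*Emcn*, *Eng*, *Flt1* and *Tie1*) against 29.5% of promoters. AGATAA, read by GATA factors, was found in 0 of the 6 against 9.99% of promoters, and TATAAA in *Flt1* alone against 12.4%. All were searched on both strands, and a match describes letters, not a bound site.

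**Figure D1:**
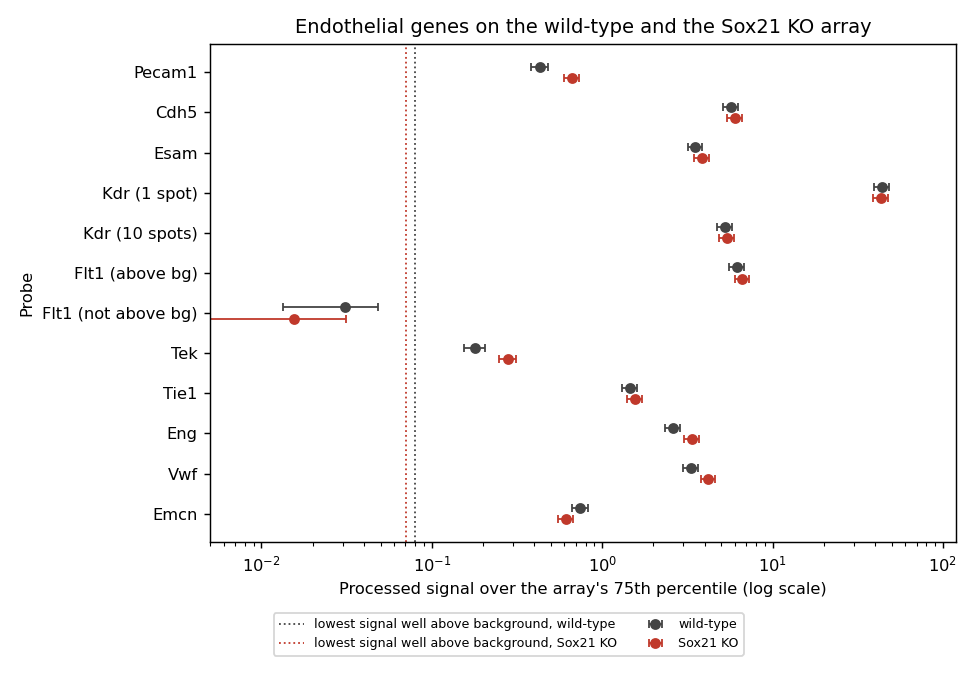
Normalized signal (processed signal over the 75th percentile of the array, log scale) of each of the 12 probes on the wild-type array (grey) and the *Sox21* KO array (red), with bars for the error the scanner software gives a spot. Dotted lines are the lowest signals marked as well above background, 11 of the 12 probes lie above them on both arrays, and levels of different probes are not comparable.

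Of the 12 probes, 11 were well above background on both arrays, covering all 10 genes, so markers that define endothelium were present in both tooth germs. Saturated spots numbered 0 on either array.

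Among the VEGF receptors, neither genotype stood apart. *Kdr* encodes VEGFR2, the main signalling receptor for VEGF in endothelium. At its brighter probe (mm9 chr5:76330395-76330454, minus strand) the signal was 11718 ± 1172 in wild-type and 11892 ± 1189 in *Sox21* KO, where the error is that of the scanner software for 1 spot. The normalized signal was 43.8 and 43.2, a log2 ratio of -0.02 with a scanner error of 0.20.

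The other *Kdr* probe lies 1086 bases away, at chr5:76329309-76329368, and was spotted 10 times on each array. Its spots read between 1342 and 1521 in wild-type and between 1403 and 1533 in *Sox21* KO, with coefficients of variation of 3.82% and 2.95%. These ranges overlap over most of their width. The log2 ratio was higher in 7 spots and lower in 3, from -0.12 to 0.15, with a mean of 0.04 and an SD of 0.08 between spots. This SD covers repeat spots of 1 hybridization, not mice.

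*Flt1* encodes VEGFR1, which binds VEGF tightly and signals weakly. The signal was 1662 ± 166 in wild-type and 1835 ± 184 in *Sox21* KO, normalized signals of 6.21 and 6.66, a log2 ratio of 0.10 with a scanner error of 0.20 (chr5:148373791-148373850, minus strand). A second *Flt1* probe, designed on a placental cDNA clone, lies 92185 bases away and was well above background on neither array, with signals of 8.29 ± 4.69 and 4.29 ± 4.30. It was given no ratio.

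**Figure D2:**
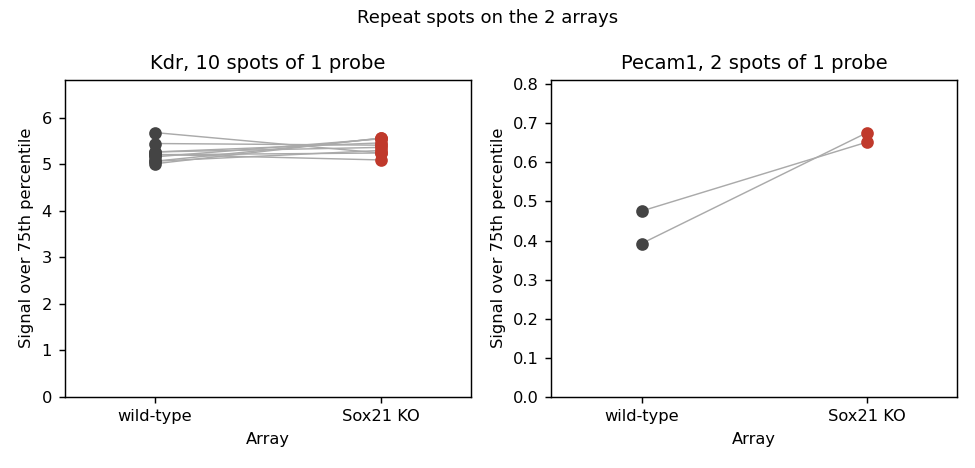
Normalized signal (linear axes from 0) of each spot on the wild-type and the *Sox21* KO array, with lines joining the same spot, for the 10 spots of 1 *Kdr* probe (left) and the 2 spots of the *Pecam1* probe (right). The *Kdr* spots overlap between arrays, whereas both *Pecam1* spots are higher on the *Sox21* KO array. Spots are repeats within 1 hybridization per genotype, not mice.

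The Tie receptors differed from each other in size of ratio. *Tek*, the angiopoietin receptor, had a signal of 48.0 ± 6.61 in wild-type and 77.2 ± 8.73 in *Sox21* KO, and normalized signals of 0.179 and 0.280. Its log2 ratio of 0.64 was the highest of the 10 genes, 2.50 times its scanner error of 0.26, and stood at the 97.6th percentile of all measured genes. The *Tek* signals were dim, at 2.26 and 3.97 times the lowest signal well above background on their arrays, and a normal-exponential background correction, which damps dim spots, gave 0.31 in place of 0.64.

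*Tie1*, the receptor that modifies *Tek* signalling, had signals of 390 ± 39.3 and 427 ± 42.9. The normalized signals were 1.46 and 1.55, a log2 ratio of 0.09 with a scanner error of 0.21. The *Tie1* signals lay within 1 scanner error of each other and those of *Tek* did not, which does not test whether the ratios differ. Under the normal-exponential correction *Tie1* had 0.07 where *Tek* had 0.31.

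Junction genes went from near 0 to a log2 ratio of 0.62. *Cdh5*, for VE-cadherin, had signals of 1530 ± 153 and 1658 ± 166, normalized signals of 5.72 and 6.02, and a log2 ratio of 0.07 (chr8:106668159-106668218, plus strand). *Esam* had signals of 943 ± 94.4 and 1062 ± 106, normalized signals of 3.52 and 3.85, and a log2 ratio of 0.13 (chr9:37345795-37345854, plus strand). For both genes the error of the log2 ratio was 0.20, larger than the ratio itself.

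*Pecam1*, also called CD31, is found on endothelium and on platelets and leukocytes. Its 2 spots read 105 and 127 in wild-type and 180 and 186 in *Sox21* KO, so the spots of the 2 arrays did not overlap. These too are repeat spots of 1 hybridization per genotype, not mice. The SD of their log2 ratios was 0.23, against a median of 0.09 for probes with at least 5 spots. The mean normalized signal was 0.432 and 0.664, a log2 ratio of 0.62, with 0.46 and 0.79 at the single spots. This was 2.86 times the scanner error of 0.22 and stood at the 97.3th percentile of measured genes, and it was 0.43 under the normal-exponential correction.

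*Eng* encodes endoglin, a co-receptor for ligands of the TGF-beta family. Its signal was 699 ± 70.1 in wild-type and 925 ± 92.6 in *Sox21* KO, normalized signals of 2.61 and 3.35, with a log2 ratio of 0.36 and a scanner error of 0.20 (chr2:32537268-32537327, plus strand).

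*Vwf* encodes von Willebrand factor, a clotting protein that endothelial cells store and that platelets carry too. The signal was 885 ± 88.7 in wild-type and 1158 ± 116 in *Sox21* KO, normalized signals of 3.31 and 4.20, with a log2 ratio of 0.35 and a scanner error of 0.20 (chr6:125636551-125636610, plus strand). *Eng* and *Vwf* were thus at similar ratios, at the 91.3th and the 90.8th percentile of measured genes.

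*Emcn* encodes endomucin, a sialomucin of capillary and venous endothelium. Its signal was 199.7 ± 20.5 in wild-type and 168 ± 17.4 in *Sox21* KO, normalized signals of 0.746 and 0.611. The log2 ratio of -0.29, with a scanner error of 0.21, was the lowest of the 10 genes and stood at the 11.5th percentile of measured genes.

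**Figure D3:**
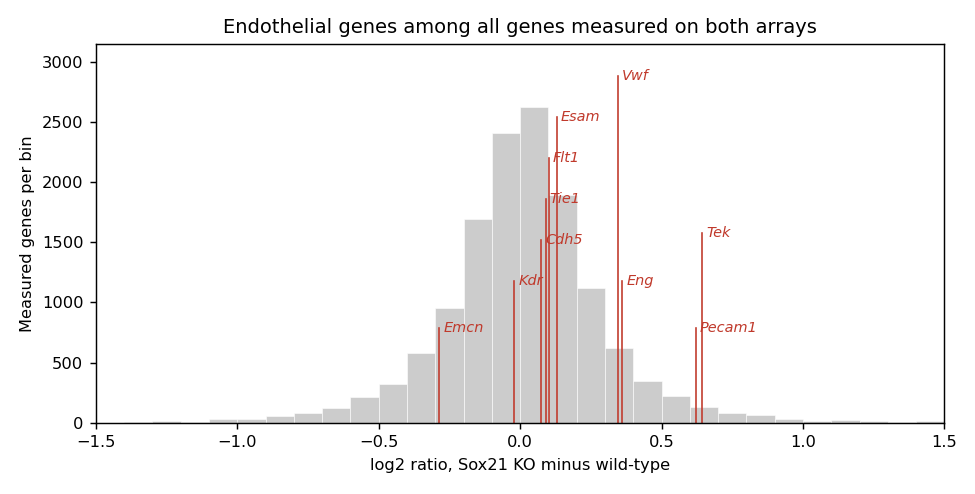
Number of measured genes per bin of log2 ratio (*Sox21* KO minus wild-type, grey bars), with a red line at the ratio of each endothelial gene (line height has no meaning). *Tek* and *Pecam1* lie beyond the 95th percentile of 0.48, and the other 8 lie between the 5th and the 95th percentile.

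Of all measured genes 52.4% were higher in *Sox21* KO, against 8 of the 10 endothelial genes. Their median log2 ratio was 0.11, against 0.01 for all measured genes. At least 2-fold higher were 0.739% of measured genes and at least 2-fold lower 0.666%, and 0 of the 10 endothelial genes were in either class. At least 1.5-fold higher were 3.2% of measured genes and 2 of the 10, *Tek* and *Pecam1*, and at least 1.5-fold lower were 2.98% and 0 of the 10. Under the normal-exponential correction 0 of the 10 were at least 1.5-fold higher. *Kdr* and *Cdh5* differed by less than the median SD of repeat spots. Of the 10 genes, 5 differed by more than their own scanner error (*Tek*, *Pecam1*, *Eng*, *Vwf* and *Emcn*), and 2 by more than 2 times that error (*Pecam1* and *Tek*). The scanner error is a figure from the software, not a spread between spots. For the 10 spots of 1 *Kdr* probe it was 0.20, where their SD was 0.08. The count of higher genes depended on the scaling. With each array divided by its median signal 9 of the 10 genes, but also 69.3% of all measured genes, were higher. The gene that crossed 0 was *Kdr*. In whole tissue, a change in the number of cells of a type and a change in RNA per cell cannot be told apart.

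**Figure D4:**
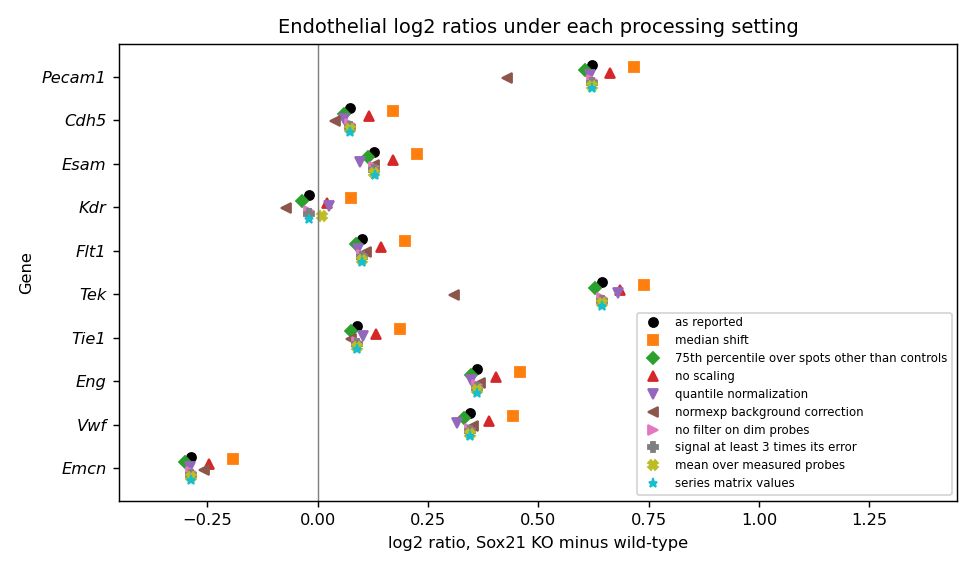
Log2 ratio (*Sox21* KO minus wild-type) of each endothelial gene as reported (black) and under 9 other ways of processing the arrays. *Kdr* lies on both sides of 0, and the normal-exponential background correction lowers *Tek* and *Pecam1*.

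The ligands and partners of the receptors were read from 2 further lists. Of 8 genes of VEGF ligands and co-receptors, 7 were measured and all 7 were higher in *Sox21* KO, with a median log2 ratio of 0.24. Under the normal-exponential correction 6 of the 7 were higher and *Nrp1* was lower. Among the ligands, *Vegfa* had 0.33 at its brighter probe and 0.03 at the other, *Vegfb* 0.08, *Vegfc* 0.24, *Vegfd* 0.65 and *Pgf*, for placental growth factor, 0.61. *Vegfd* and *Pgf*, both dim, were the 2 at least 1.5-fold higher, against 3.2% of all measured genes, and 0 of the 7 were so under the normal-exponential correction. The co-receptors *Nrp1* and *Nrp2*, for the neuropilins, both had 0.05, and *Flt4*, the receptor of lymphatic endothelium, was well above background on neither array.

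All 5 genes around the Tie receptors were measured, 4 higher and 1 lower, with a median of 0.14. *Angpt1*, the ligand that activates the *Tek* receptor, had a log2 ratio of 0.14 and *Angpt2*, its context-dependent antagonist, 0.13. *Ptprb*, a phosphatase of the receptor, had 0.28 at its brighter and -0.02 at its dimmer probe, and *Svep1*, an extracellular ligand of Tie1, had 0.25. *Angpt4* had -0.92, with signals of 208 and 113, and was the 1 gene of both lists at least 1.5-fold lower, against 2.98% of all measured genes. Its 3 measured probes disagreed, with 0.41 at the highest, and with the mean over probes 0 genes of its list were at least 1.5-fold lower.

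Further endothelial genes varied in both directions around the 10. Of 27 other surface and secreted genes of endothelium, 25 were measured, 18 higher and 7 lower, with a median log2 ratio of 0.12 and a range from -0.37 for *Aplnr*, the apelin receptor, to 0.66 for *Lyve1*, a hyaluronan receptor of lymphatic vessels and some macrophages. The *Lyve1* signals were dim, at 71.1 in wild-type and 115 in *Sox21* KO. *Sele* and *Selp*, the selectins of activated endothelium, were well above background on neither array. Of 15 transcription factors, 13 were measured, 7 higher and 6 lower, with a median of 0.02 between -0.32 for *Gata2* and 0.52 for *Fli1*, an ETS factor. Without the filter on dim probes 7 were higher and 8 lower, with a median of -0.03, where 42.4% of all genes were higher. *Hey2* and *Prox1*, the latter a regulator of lymphatic fate, were well above background on neither array. Of 11 arterial and venous genes all were measured, 5 higher and 6 lower, with a median of -0.04 between -0.58 for *Gja5*, an arterial connexin, and 0.63 for *Notch4*. This split depended on the processing, since 6 were higher and 5 lower under the median scaling, no scaling, quantile normalization and the normal-exponential correction, where the median was above 0, and 4 were higher and 7 lower with the mean over probes.

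Mural cells, which wrap the vessels, were read from 12 genes. Of these 11 were measured, 7 higher and 4 lower, with a median of 0.20 between -0.51 for *Des* and 0.45 for *Cspg4*, and the summed normalized signal was 133 in wild-type and 145 in *Sox21* KO. Such sums, here and below, are led by the brightest probes, and levels of different probes are not comparable. *Myh11*, of smooth muscle, was well above background on the *Sox21* KO array alone, where it was at least 1.28-fold higher.

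Since *Pecam1* and *Vwf* are also made by blood cells, lists of these cells stand beside them. Of 10 megakaryocyte and platelet genes, 5 were measured and all 5 were higher in *Sox21* KO, with a median of 0.46. Under the normal-exponential correction this median was 0.18, and without the requirement on background 8 of the 10 genes were higher and 2 lower. The 5 measured genes ran from *Pf4* at 0.06 to *Gp1bb*, of the von Willebrand factor receptor, at 0.73, with *Itgb3* at 0.64. *Gp1bb* was dim, with signals of 29.4 in wild-type and 50.3 in *Sox21* KO. So was *Treml1*, whose ratio of 0.46 is the median, with signals of 32.8 and 46.5. The summed normalized signal of these 5 was 18.8 in wild-type and 25.7 in *Sox21* KO, with *Itgb3*, an integrin that osteoclasts and endothelium also make, at 11.2 and 17.5 and *Pf4* at 6.27 and 6.55. *Itga2b*, *Gp1ba*, *Ppbp* and *Gp6* were well above background on neither array, and *Gp9* was at least 1.56-fold higher on the *Sox21* KO array, the 1 where it was well above background. Of 12 leukocyte genes 10 were measured, 7 higher and 3 lower, with a median of 0.21 between -0.46 for *Itgam* and 0.50 for *Cd68*, and their summed signal was 109 in wild-type and 106 in *Sox21* KO. The bright *Itgam* probe alone went from a normalized signal of 53.6 to 38.9, whereas the other probe of this gene had a log2 ratio of 0.09. *Ptprc*, for CD45, and *Lyz2* were well above background on the *Sox21* KO array alone, where the first was at least 1.09-fold and the second at least 1.12-fold higher. The part of platelets and leukocytes in the *Pecam1* and *Vwf* ratios was not tested. Of 10 erythroid genes 4 were measured, 2 higher and 2 lower, with a median of -0.03 between -0.30 for *Slc4a1* and 0.11 for *Hemgn*, and a summed signal of 29.9 and 31.7, of which *Hemgn* made up 25.2 and 27.2.

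Lists of the surrounding tissue stand beside these. All 12 tooth genes were measured, 7 higher and 5 lower, with a median of 0.09 between -0.65 for *Enam*, of the enamel matrix, and 0.93 for *Dmp1*, of dentin and bone. All 10 epithelial genes were measured, 5 in each direction, with a median of 0.04 between -0.21 for *Esrp1* and 0.61 for *Grhl2*. With each array divided by its median signal 8 were higher and 2 lower, where 69.3% of all measured genes were higher. The probes of *Esrp1* disagreed, with 0.76 at the dimmer, as did those of *Trp63*, from -0.68 to 0.22, and under the normal-exponential correction the epithelial median was -0.0041. Of 10 mesenchymal genes, all measured, 8 were higher and 2 lower, with a median of 0.22 between -0.12 for *Col3a1* and 0.39 for *Fn1*. The summed signal in wild-type and *Sox21* KO was 3251 and 2994 for tooth genes, 884 and 965 for epithelial genes and 1725 and 1947 for mesenchymal genes. Whether the makeup of the 2 dissections bears on the vessel genes was not tested.

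**Figure D5:**
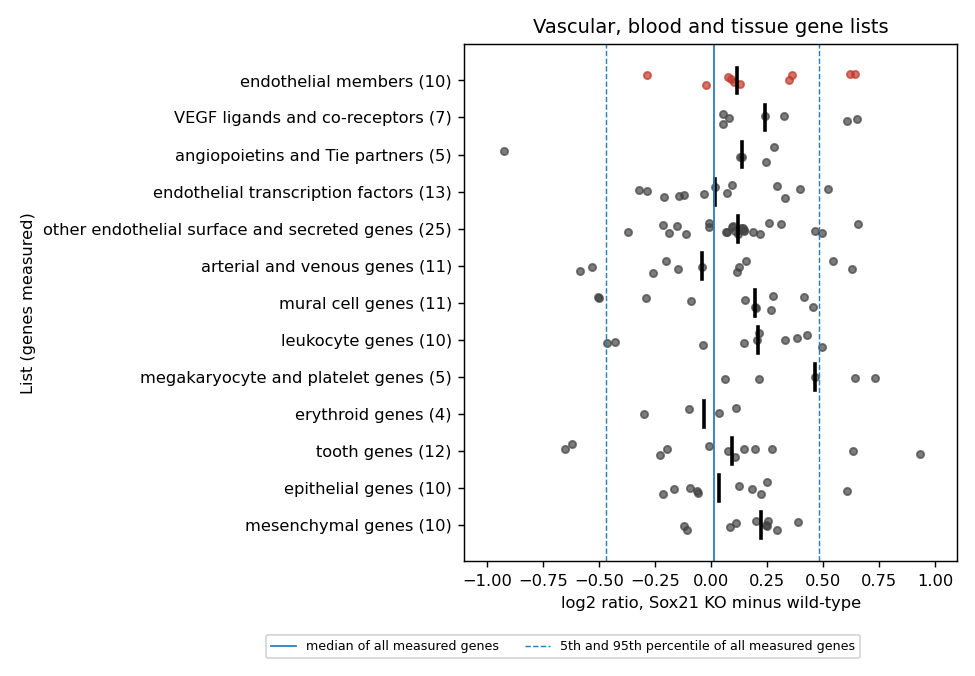
Log2 ratio (*Sox21* KO minus wild-type) of each measured gene, by list, with the number measured in brackets and a black bar at the list median. The 10 endothelial genes (red) have a median of 0.11 and the 5 platelet genes one of 0.46 (0.18 under the normal-exponential correction), and blue lines mark the median, the 5th and the 95th percentile of all measured genes.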

How the data were processed

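The authors deposited, for each spot of both arrays, a processed signal intensity from Agilent Feature Extraction 10.7.3.1, with the software's error, its mark of spots well above background and the raw mean and local background intensities. A deposited value table holds the ratio of each processed signal to 1 number per array, which differed from the 75th percentile over all 62976 spots by at most 0.00933%. The methods name a percentile shift and the removal of very low signals but give neither value.

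Here, each signal was divided by the 75th percentile of its array, spots of a probe were averaged on the log2 scale, and 267 spots marked as outliers were left out, leaving 55679 probes. Genes were named through RefSeq (GRCm38.p6) where possible. An accession named 26300 probes, a current symbol 2044 and a former symbol 355. The other 26982 probes matched none of these and entered no gene, list or share of measured genes. A probe was measured when at least a share of 0.5 of its spots was well above background on each array, and a gene was read at its brightest measured probe. Where a gene was above background on 1 array alone, a bound was taken against the lowest signal well above background on the other array (21.3 in wild-type, 19.5 in *Sox21* KO) or the dim probe's own signal, whichever was higher. The scanner error of a log2 ratio combines the software's errors of both signals.

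Named are every endothelial gene and probe, *Sox21*, every VEGF and angiopoietin gene with a probe, and, of each other list, the highest and lowest ratio and any gene past 2-fold. A few further genes were named after their values were seen, among them those above background on neither array or on 1 array. The members and lists were chosen with earlier results of these data known. No test was run. The steps were tested on simulated data, with Python 3.11.15, numpy 2.4.6, pandas 2.3.3, matplotlib 3.10.9, R 4.3.3 and limma 3.58.1, which gave the quantile and normal-exponential alternatives.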

Additional observations from a re-analysis of the deposited data

How the results depend on the processing

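Each endothelial ratio kept its direction under every scaling and background correction, with the exception of *Kdr*, which ran from -0.07 to 0.08. The other settings could show little. The filters on dim probes left all 10 ratios as they were, and the deposited value table holds the same signals over nearly the same divisor. Only *Kdr* had more than 1 measured probe, so the mean over probes could move no other endothelial gene. With *Kdr* above 0, the number of lower endothelial genes was 1 in place of 2 under the median scaling, no scaling, quantile normalization and the mean over probes. The median scaling raised every ratio by 0.10 by construction. The median was then 0.21 for the 10 endothelial genes, 0.34 for VEGF ligands, 0.23 for angiopoietins and Tie partners, 0.11 for transcription factors, 0.22 for other endothelial genes, 0.057 for arterial and venous genes, 0.29 for mural cells, 0.31 for leukocytes, 0.56 for platelets, 0.065 for erythroid cells, 0.19 for tooth, 0.13 for epithelium, 0.32 for mesenchyme and 0.11 for all measured genes. The normal-exponential correction gave 0.18 for the platelet list, and without the filter on dim probes its median was 0.55, the erythroid one -0.16, the one of transcription factors -0.03 in place of 0.02, the one of VEGF ligands 0.16, and 42.4% of all genes were higher. The cause of these was not tested. With a threshold of 1.5-fold, 2 endothelial genes were past it, but 0 when the normal-exponential correction was used as well, a combination chosen after seeing the data. The *Tek* and *Pecam1* signals were dim, and the single array per genotype limits every gene. No paired analysis was possible because each genotype has 1 array, and for the same reason no array could be left out.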
